A study of Mus musculus with 2 samples.

Results

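The genes of de novo fatty acid synthesis were measured in mouse liver on 2 Affymetrix arrays, 1 from Bglu3 congenic mice and 1 from control mice. The 10 genes are Srebf1, Fasn, Acaca, Acacb, Acly, Me1, Scd1, Elovl6, Thrsp and Pnpla3, out of 18193 genes that the platform annotation names for probe sets with a single symbol. A probe set was taken where that single symbol was one of the 10, which gave 23 probe sets of the 45101 in the deposited table, and no further probe set carried one of these genes among several symbols. All 10 genes were found. Controls were C57BL/6 apoE-/- mice, and the congenic array is described by the strain labels Bglu3 congenic and C57BL/6. A congenic strain carries a donor segment on another strain's background, and Bglu3 is known as a blood glucose locus of mouse chromosome 1. Both groups were labelled hyperglycemic, had been weaned onto chow (age 3 weeks) and ate a Western diet for 12 weeks from the age of 6 weeks, thus to about 18 weeks. The labels state neither the apoE genotype of the congenic mice, nor the sex, the number of animals behind each array or the hour of tissue collection. With 1 array per group there was no spread between animals and no test, and strain, array and animal cannot be told apart in any value below.

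De novo lipogenesis turns surplus carbohydrate into fatty acids in the cytosol of hepatocytes. Citrate that leaves the mitochondria is cleaved to acetyl-CoA, which is carboxylated to malonyl-CoA and built into palmitate with electrons from NADPH, and palmitate is then elongated to stearate and desaturated to oleate. In liver the pathway is driven by insulin through the transcription factor SREBP-1 and by carbohydrate through ChREBP, and it is known to be induced by feeding and restrained by fasting. None of the 10 genes lies on chromosome 1 in the RefSeq table, and 4 (Srebf1, Fasn, Acaca and Acly) lie on chromosome 11. Acacb is on chromosome 5, Elovl6 on 3, Thrsp on 7, Me1 on 9, Pnpla3 on 15 and Scd1 on 19.

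The genes did not differ as a block. Thrsp was lower in the congenic array by 3.10-fold, Acacb and Elovl6 were higher by 1.78-fold and 1.57-fold, and the synthase gene Fasn (0.06) and the desaturase gene Scd1 (-0.03 on its brighter probe set) stood nearly level. These folds and all differences are on the log2(intensity + 5) scale, congenic minus control, which understates differences of dim probe sets. A probe set counted as expressed when it was at or above its array's median on at least 1 array, and a gene was represented by its brightest probe set. Of the 10 genes, 9 were expressed, 5 of them higher and 4 lower at any size, with a median difference of 0.06 beside 0.04 for all 12613 expressed genes. A size of 1.5-fold (0.58 on the log2 scale) was reached by 3 of the 9, 2 higher and 1 lower, where 12.9% of all expressed genes reached it in either direction, 7.59% on the higher and 5.26% on the lower side. A share over 9 genes moves by a large step with each gene, so these counts describe 2 arrays and no more. Pnpla3, the 10th gene, did not pass the filter.

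**Figure D1:**
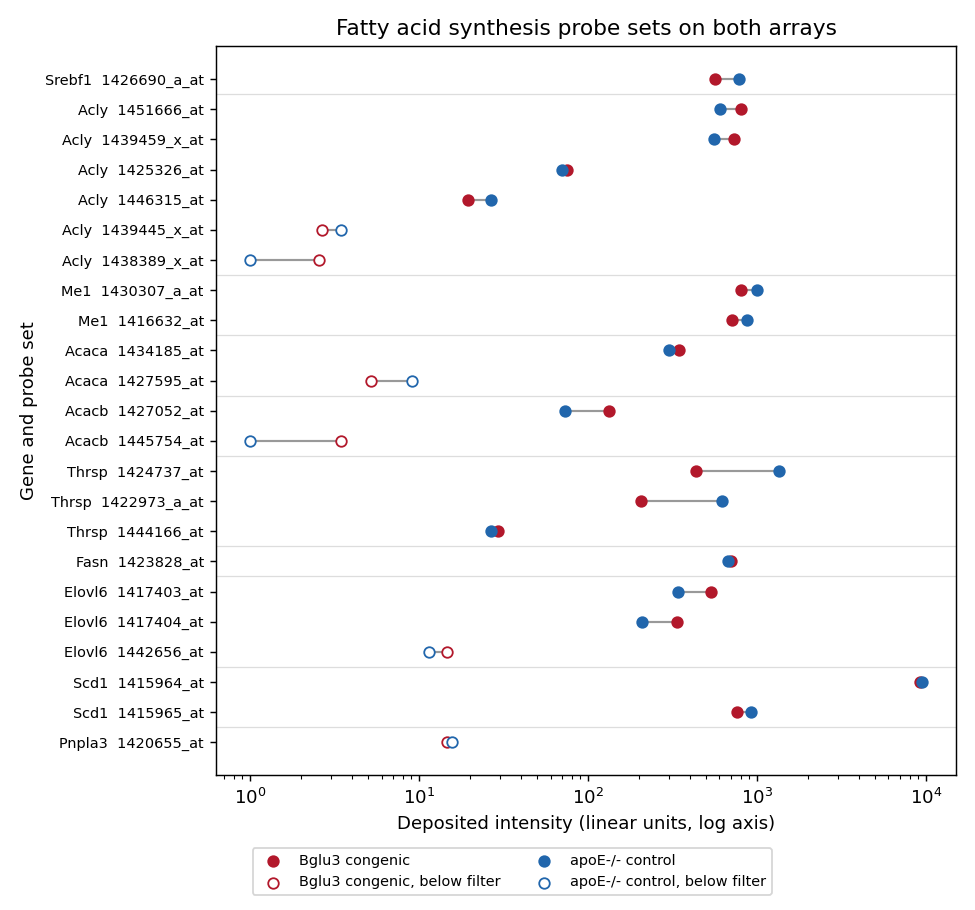
Deposited intensity (linear units on a log axis) of the 23 probe sets, grouped by gene in the order of the pathway, with 1 point for the congenic and 1 for the control array and a line joining them. Filled points passed the expression filter and open points did not. The longest lines among filled points belong to the 2 brighter Thrsp probe sets, at 434 against 1356 and 206 against 619.9.

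Srebf1 encodes SREBP-1, the transcription factor that insulin induces in liver and that activates many genes of lipogenesis. Its 1 probe set (1426690_a_at) had an intensity of 562 on the congenic array against 782 on the control array, a difference of -0.47. Among the members within 1.5-fold this was the value nearest to that limit. Of all expressed genes, 7.81% had a difference as low or lower. The suffix _a_at of that probe set marks probes shared by transcripts of 1 gene, so the Srebf1 isoforms, which differ at their start, were not separated.

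Acly and Me1 supply the pathway, Acly as the ATP citrate lyase that makes cytosolic acetyl-CoA and Me1 as the malic enzyme that makes NADPH. The brightest Acly probe set (1451666_at) gave 804 on the congenic against 608 on the control array (difference 0.40), and a second (1439459_x_at) 736 against 558 (0.40). The other 2 expressed Acly probe sets gave 75.1 against 69.8 (0.10) and 19.45 against 26.7 (-0.38), so the 4 did not share a direction and spanned 0.77 on the log2 scale. The last 2 Acly probe sets were below the median of both arrays, at 2.66 against 3.45 and 2.55 against 1. Me1 was lower in the congenic array on both of its probe sets, at 809 against 1003 (-0.31) on 1430307_a_at and 708 against 873 (-0.30) on 1416632_at. These 2 differed from each other by only 0.01.

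Acaca and Acacb encode the acetyl-CoA carboxylases. The product of Acaca makes the malonyl-CoA that fatty acid synthase uses in the cytosol, whereas that of Acacb sits at the outer mitochondrial membrane, where its malonyl-CoA restrains the uptake of fatty acids for oxidation. Acaca (1434185_at) stood at 345 against 303, congenic array first, a difference of 0.18. Acacb (1427052_at) stood at 134 against 73.05, a difference of 0.83, and 3.37% of expressed genes differed by as much or more on the higher side. The gap between the differences of the carboxylase genes was 0.65 on the log2 scale and was not tested. Each has a further probe set below the filter, Acaca at 5.21 against 9.09 (-0.46) and Acacb at 3.46 against 1 (0.50). Exactly 1 was listed for 1634 control and 1677 congenic probe sets, so the 0.50 depends on such a value and is not read as a fold. The call on Acacb therefore rests on 1 probe set.

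Thrsp encodes a small nuclear protein that thyroid hormone and carbohydrate induce in liver and that is known to promote lipogenesis. Its brightest probe set (1424737_at) gave 434 on the congenic against 1356 on the control array, a difference of -1.63, and its second (1422973_a_at) 206 against 619.9, a difference of -1.57. Of all 12613 expressed genes, 36 (0.285%, Thrsp included) had a difference as low, and the 2-fold size on the lower side was reached by 1.45% of them. Thrsp was the only one of the 9 expressed members to reach 2-fold in either direction, where 3.44% of all expressed genes did. The third Thrsp probe set (1444166_at) did not follow, at 29.25 against 26.6 (0.12). It lay at percentile 57.2 of the congenic and 55.4 of the control array, close to the filter, and which part of the transcript it reads is not known here.

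Fasn encodes fatty acid synthase, the enzyme that assembles palmitate. Its 1 probe set (1423828_at) gave 701 on the congenic against 671 on the control array, a difference of 0.06 that lay at percentile 52.5 of expressed genes. Elovl6 encodes the elongase that converts palmitate to stearate. It stood at 538 against 341 (0.65) on its brightest probe set (1417403_at) and 338 against 209 (0.68) on its second (1417404_at). The third Elovl6 probe set was below the filter, in the same direction at 14.6 against 11.5 (0.25). At 0.65, Elovl6 was the member closest to the 1.5-fold limit among those past it, and 6.02% of expressed genes differed by as much or more on the higher side.

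Scd1 encodes the main stearoyl-CoA desaturase of liver, which makes oleate. Its brighter probe set (1415964_at) gave 9265 on the congenic against 9469 on the control array (-0.03), and its other (1415965_at) 763 against 916 (-0.26). The first lies near the top of arrays whose highest values were 14440 and 13395, where a difference may be compressed. Scd1 has close relatives, and probes can bind their transcripts, so its values are uncertain to that extent. Pnpla3 encodes a lipid droplet protein that SREBP-1 induces and whose human variant is linked to fatty liver. Its 1 probe set (1420655_at) stood at 14.7 against 15.6 (-0.06), at percentile 44.6 of the congenic and 45.4 of the control array, so a difference could not be read at this signal.

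**Figure D2:**
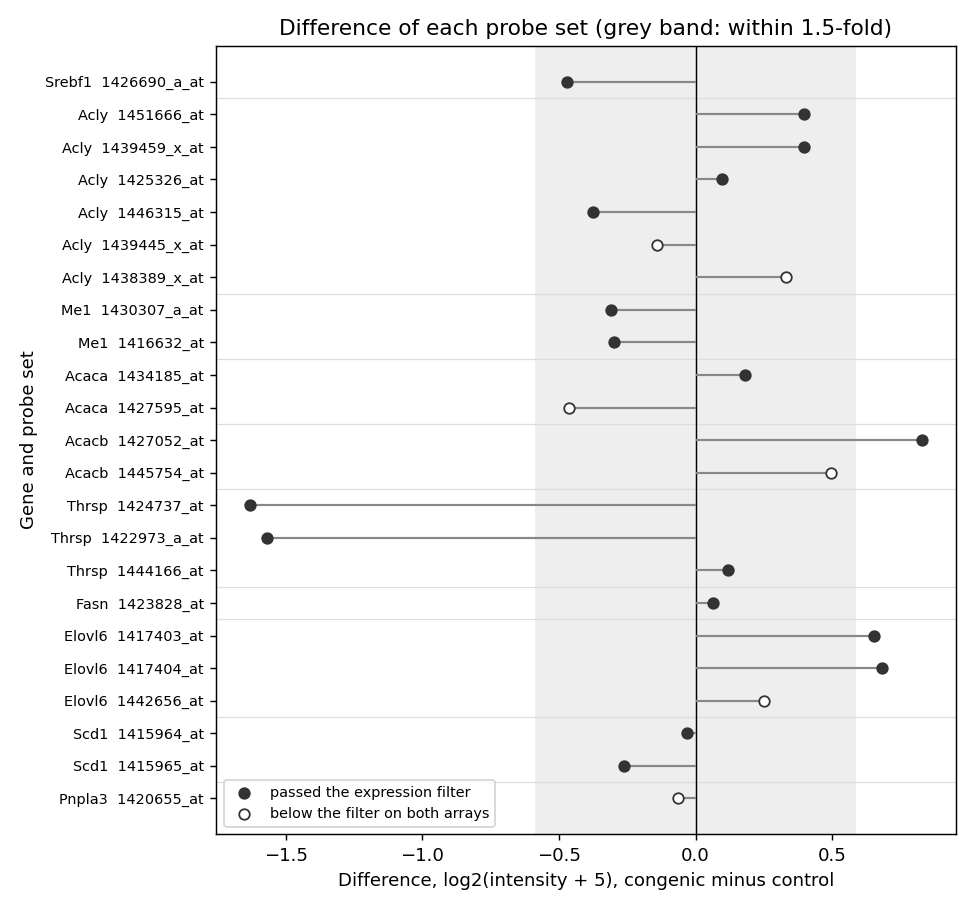
Difference of each of the 23 probe sets on the log2(intensity + 5) scale, congenic minus control, grouped by gene in the order of the pathway, with the range within 1.5-fold shaded. Filled points passed the expression filter. Of 17 filled points, 3 (Acacb and both of Elovl6) lie past the band on the right and 2 (both of Thrsp) on the left.

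The probe sets of a gene give the one internal measure of repeatability on these arrays, though they read the same RNA and say nothing about other animals. Of the 17 expressed member probe sets, 3 were higher and 2 lower by 1.5-fold or more and 12 lay within it, where 13.3% of the 20973 expressed probe sets with 1 symbol lay past it, 7.22% on the higher and 6.04% on the lower side. Over the 5189 genes with 2 or more expressed probe sets, the differences of probe sets within a gene had an SD of 0.34 on the log2 scale, and of 0.26 among the 1770 of them whose level reached the 75th percentile of expressed genes. All probe sets shared a direction in 52.4% of the 5189 genes. Among members, 5 had 2 or more expressed probe sets. Me1, Scd1 and Elovl6 kept 1 direction, and Acly and Thrsp held both. On their brightest probe sets, the differences of Acaca, Fasn and Scd1 were smaller in size than both SDs, that of Me1 (-0.31) lay between them, and those of Srebf1 (-0.47) and Acly (0.40) exceeded both. The SDs pool unlike probe sets of many genes, so they are not the error of any of these differences.

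**Figure D3:**
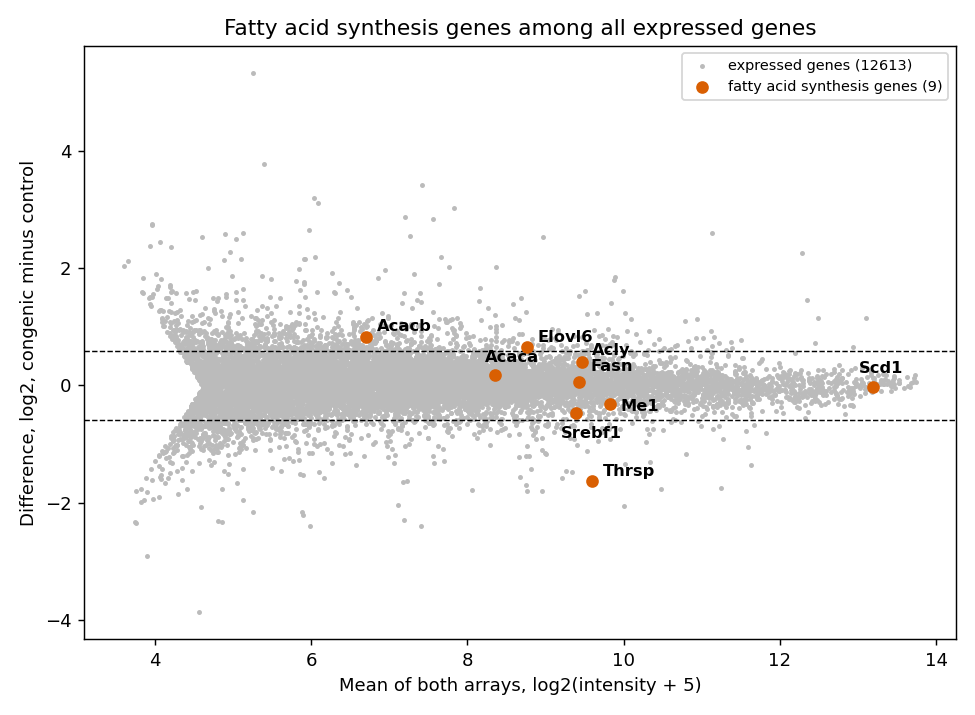
Mean of both arrays against the difference, congenic minus control, both on the log2(intensity + 5) scale, for 12613 expressed genes (grey) and the 9 expressed fatty acid synthesis genes (orange), each by its brightest probe set. Dashed lines mark 1.5-fold. Thrsp lies below most grey points of its level, and Acacb and Elovl6 lie just above the upper line.

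The proximal promoters of the members that were past 1.5-fold, and of Fasn as a pathway gene with a difference of 0.06, are printed so that the genes that went apart can be compared in sequence. They are the 250 bases before a RefSeq transcription start in build GRCm38.p6, read 5′ to 3′ on the gene's strand. Thrsp is at chr7:97417551-97417800 (minus strand), Acacb at chr5:114165268-114165517 (plus), Elovl6 at chr3:129532136-129532385 (plus) and Fasn at chr11:120824548-120824797 (minus). Capitals mark matches to the motifs searched, here all CCAAT or its reverse complement ATTGG.
Thrsp: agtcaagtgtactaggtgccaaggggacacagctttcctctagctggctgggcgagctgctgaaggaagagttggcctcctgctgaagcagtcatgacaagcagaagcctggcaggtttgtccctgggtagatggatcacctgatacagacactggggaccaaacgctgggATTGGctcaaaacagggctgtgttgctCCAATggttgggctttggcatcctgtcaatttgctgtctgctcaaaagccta
Acacb: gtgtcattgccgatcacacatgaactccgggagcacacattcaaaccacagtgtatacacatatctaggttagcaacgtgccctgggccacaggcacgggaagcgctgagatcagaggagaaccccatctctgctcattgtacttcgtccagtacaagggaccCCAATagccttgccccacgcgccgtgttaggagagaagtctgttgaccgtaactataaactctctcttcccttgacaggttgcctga
Elovl6: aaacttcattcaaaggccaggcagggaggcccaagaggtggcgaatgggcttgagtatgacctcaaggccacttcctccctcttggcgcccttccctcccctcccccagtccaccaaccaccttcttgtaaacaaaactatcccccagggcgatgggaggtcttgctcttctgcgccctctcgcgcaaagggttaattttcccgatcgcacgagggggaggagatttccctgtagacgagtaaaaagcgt
Fasn: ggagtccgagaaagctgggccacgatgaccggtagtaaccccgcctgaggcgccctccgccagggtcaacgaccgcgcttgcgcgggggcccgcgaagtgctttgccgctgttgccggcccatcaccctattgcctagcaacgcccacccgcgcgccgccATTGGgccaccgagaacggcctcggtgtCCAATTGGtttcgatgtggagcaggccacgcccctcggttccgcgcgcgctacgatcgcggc

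Of the 10 members, 9 matched the promoter table, with 12 start windows between them because Srebf1 has 3 and Me1 has 2. On both strands 5 motifs were searched in all 32851 windows of that length. The CCAAT box, bound by NF-Y, was held by 7 of the 12 member windows, in 6 genes, and by 33.8% of all windows. In the Thrsp promoter printed above it occurs 2 times, the nearer one 52 to 48 bases before the start, and in Fasn 3 times, with a pair of opposite matches overlapping between 62 and 55 bases before the start. The GC box GGGCGG, bound by Sp1, was held by 5 member windows in 4 genes (Me1, Srebf1, Acly and Pnpla3) and by 32.7% of all windows. The sterol element core TCACNCCAC (1.05% of all windows), the E-box CACGTG (6.02%) and the DR4 element of liver X receptors (0.0152%) had no match in a member window, which says only that these letters are not in these bases. The printed Elovl6 window held none of the 5 motifs. Its share of G and C was 56.4%, between that of Thrsp (53.6%) and Fasn (69.2%).

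The 7 lists of neighbouring genes hold 71 genes, of which 66 had a probe set with a single symbol and 63 were expressed. None of the 63 was higher by 1.5-fold or more and 3 were lower, together 4.76% beside 12.9% of all expressed genes, with a median of -0.03 beside 0.04. The share of all genes includes many dim ones and was 9.05% where expression on both arrays was required. Neighbours and all genes were not matched by level, and the difference between members and neighbours was not tested.

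Among 6 genes that process SREBP, 1 was lower by 1.5-fold or more and 5 lay within it, with a median of -0.06. Insig1, which holds the SREBP escort protein in the endoplasmic reticulum and is itself an SREBP target, was the lowest at 514 against 833 (-0.69). Scap, the escort, stood at -0.02. Insig2 had differences of -0.35 to -0.10 over 3 probe sets. Srebf2, which encodes the SREBP of cholesterol synthesis, was the highest at 0.42, but its other expressed probe set gave -0.21.

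Of 13 expressed transcription factors and coactivators of lipogenesis, 12 lay within 1.5-fold on their brightest probe sets, with a median of -0.03. Xbp1 stood at -0.20 there, but its dimmest probe set gave 29.9 against 57.1 (-0.83). Mlxipl, which encodes ChREBP, stood at 492 against 479.7 (0.04). Mlx, its dimer partner, was the lowest at 143 against 227 (-0.65) on its brightest probe set, yet another stood at 160.3 against 167 (-0.06). The liver X receptor gene Nr1h3, which drives Srebf1 transcription, differed by -0.09, and the highest member was Sp1 at 0.40.

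All 9 expressed genes for citrate, acetyl-CoA and NADPH supply lay within 1.5-fold, with a median of -0.09. Pgd, a dehydrogenase of the pentose phosphate pathway that makes NADPH, was the highest at 574 against 414 (0.46), and its 4 probe sets ran from 0.31 to 0.52. Acss2, which makes acetyl-CoA from acetate, was the lowest at 406 against 493 (-0.28). Pklr, the liver pyruvate kinase and a ChREBP target, differed by 0.38.

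The 11 genes that control acetyl-CoA carboxylase and fatty acid synthase also lay within 1.5-fold, with a median of 0.08. Mid1ip1, the close relative of Thrsp whose product makes acetyl-CoA carboxylase polymerize, was the highest at 307 against 221 (0.46), in the opposite direction to Thrsp. The gap between these relatives was 2.09 on the log2 scale and was not tested. The lowest was Prkaa1, a catalytic subunit of the AMP-activated kinase that inhibits the carboxylases, at -0.20.

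Of 14 expressed elongases, desaturases and their partners, 13 lay within 1.5-fold, with a median of -0.03. Elovl3, an elongase of very long saturated fatty acids, was the lowest at 84.9 against 186 (-1.09) on its 1 probe set, so the elongase genes Elovl6 and Elovl3 lay 1.74 apart on the log2 scale. Elovl1 was the highest at 480.1 against 332 (0.53), with 4 probe sets from 0.39 to 0.53. The desaturase genes Fads1 and Fads2, which act on polyunsaturated fatty acids, differed by -0.11 and 0.07 on their brightest probe sets. Their other expressed probe sets went the opposite way, Fads1 at 28.4 against 17.9 (0.55) and Fads2 at 371 against 497 (-0.42) and at -0.07.

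Mitochondrial fatty acid synthesis is a separate route that makes the precursor of lipoate. Its 6 expressed genes lay within 1.5-fold on their brightest probe sets, with a median of -0.04, from Cbr4 at -0.15 to Oxsm at 0.10. Other expressed probe sets of Oxsm gave -0.70 (15.1 against 27.5) and -0.01, and those of Ndufab1 gave -0.89 (109 against 208) and 0.29. The relatives of Pnpla3 had 4 expressed genes within 1.5-fold and a median of 0.02. Their lowest was Pnpla2, the adipose triglyceride lipase, at -0.30, with another probe set at 0.56, and their highest was Pnpla6 at 0.18.

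**Figure D4:**
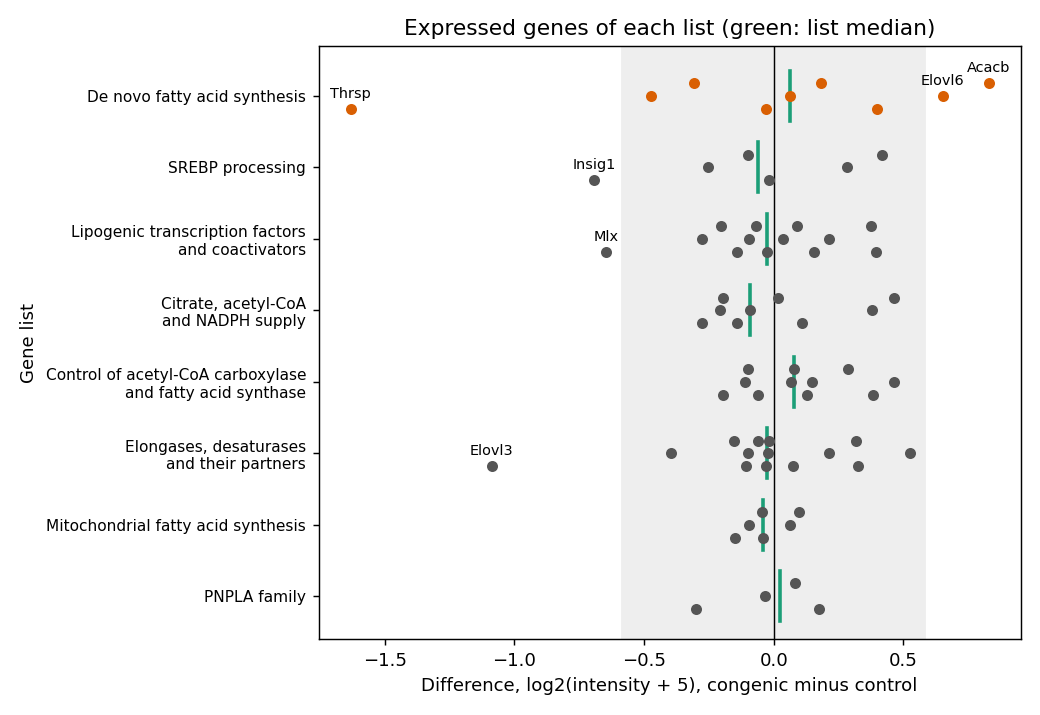
Difference on the log2(intensity + 5) scale, congenic minus control, of each expressed gene in the fatty acid synthesis set (orange) and in 7 neighbouring lists (dark grey), by brightest probe set, with list medians in green and the range within 1.5-fold shaded. Named points lie past 1.5-fold, and the neighbouring lists hold 3 of them, Insig1, Mlx and Elovl3, all on the lower side.

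The arrays differed in the markers of immune cells. All 13 expressed hepatocyte markers lay within 1.5-fold on their brightest probe sets, from Tdo2 (-0.32) to Fgb (0.17), though another Hnf4a probe set gave -0.59. Their summed intensity was 121591 on the congenic against 119232 on the control array. Fgb at 14440 and Apoa1 at 13395 were the highest values of the congenic and control arrays. Differences of such bright markers may be compressed, so these sums do not show an equal content of hepatocytes. Sums here run over all markers of a list with a probe set, congenic array first. Neutrophil markers were higher by 1.5-fold or more in 7 of 9, from Cxcr2 (0.12) to Camp (3.78), with sums of 4180 and 1287. Macrophage markers were higher in 7 of 10, from Lyz2 (0.25) to Marco (1.85), with sums of 24448 and 14912. B and T cell markers were higher in 6 of 7, from Cd8a (0.39) to Jchain (2.87), with sums of 1157 and 297. Of all expressed genes, 7.59% were higher by 1.5-fold or more. The neutrophil markers Camp, Mpo, Prtn3 and Ltf passed the filter only through the congenic array, with control intensities of 6.35, 9.28, 16.6 and 9.1. Their part in the count thus depended on the array where they were higher. Of the adipocyte markers, which matter here because fat also makes fatty acids, 3 of 6 with a probe set were expressed, from Cidec (-0.31) to Fabp4 (0.26). Their sums were 1194 and 1017, of which Fabp4 alone held 1127 and 938, so the sums mostly follow 1 gene. Adiponectin (Adipoq) stood at 24.1 and 21.3 and leptin (Lep) at 1.39 and 1. In whole liver RNA fewer cells of a type and less RNA per cell cannot be told apart, and the part of these markers in the differences of the fatty acid synthesis genes was not tested. As a mark of RNA integrity, the actin controls gave a 3'/5' ratio of 1.68 and 1.65 and the Gapdh controls 1.25 and 1.23, congenic array first. Apoe, the gene disrupted in the controls, had intensities of 229 (congenic) and 118 (control), and since the place of its probes relative to the disruption is not known here, this does not check the genotype.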

How the data were processed

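Liver RNA was profiled on 2 arrays, 1 per group, from cRNA made with 8 µg of total RNA per the labels' protocols. The table deposited by the authors gives each probe set a linear intensity on each array. No method of summarizing or scaling is given in sources used here. The array medians were 19.3 (congenic) and 19.7 (control), and no rescaling was applied. Array number limits the precision, since 1 array per group gives no replicate error. Of 45101 probe sets, 64 controls were left out, 34945 had 1 gene symbol, 932 several and 9160 none. Differences are log2(intensity + 5), with the rounded 20th percentile of all values as pseudocount. Genes were represented by the probe set with the highest mean and counted at 1.5-fold. Expression meant reaching the 50th percentile on at least 1 array. Promoters come from RefSeq (GRCm38.p6). Named genes are all members, every neighbour past 1.5-fold, the extremes of each list, and Apoe. Neighbours mentioned besides these were chosen after their values were seen. Members and lists were chosen with earlier results of these data known. Alternatives covered scaling, pseudocount, filter, probe set choice and fold. The counting code was run on simulated arrays whose planted changes were larger than that of any member and whose noise was small. That run does not test calls near 1.5-fold. Python 3.11.15, pandas 2.3.3 and statsmodels 0.14.6 were used.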

Additional observations from a re-analysis of the deposited data

How the results depend on the processing

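With 10 alternatives of scaling (median centring, quantile normalization, loess), pseudocount (20 or none), filter, probe set choice and fold, Thrsp remained the 1 lower member in each. The number of higher members was 2 in 9 alternatives and 0 at 2-fold, a stricter size by construction. The share of all expressed genes past the fold was 12.9% as reported, 7.20% with a pseudocount of 20 and 3.44% at 2-fold, and otherwise lay within 1.5 times of it, up to 16.8%. The median of the members ranged from -0.14 to 0.12. It was negative only with the median over the probe sets of a gene, which also uses probe sets below the filter. There it was the value of Acaca. Over 89 recomputed member values none moved by as much as the SD between probe sets or crossed 1.5-fold, but many of them could not move. The filter settings change only which genes count, and the choice of probe set cannot change a gene with a single one. Thrsp ran from -1.65 to -1.57, Acacb from 0.66 to 0.87 and Elovl6 from 0.62 to 0.66, while Acaca ran from -0.14 to 0.18. The low ends of Acacb and Acaca came from the median over probe sets, which took in their probe sets below the filter. For Acacb that included the control value of exactly 1. No paired analysis was possible because each group holds 1 array, and for the same reason no array could be left out. Dim probe sets limit Pnpla3 and the further probe sets of Acaca and Acacb.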
